A study of Homo sapiens with 3 samples.

Results

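The GADD45 family is the group of growth arrest and DNA damage inducible genes GADD45A, GADD45B and GADD45G, described here with GADD45GIP1, which encodes a protein that binds GADD45 proteins. Members were chosen by the gene name printed in the array files, and every non-control probe of these names was kept, which gave 4 of 27274 gene names and 5 of 34127 probes. GADD45G had 2 probes and each of the others had 1, and each probe was a single spot on an array. HepG2 cells, an established human hepatocellular carcinoma line that the study describes as having wild-type p53, were cultured for 30 h without etoposide, with 10 μM etoposide (the low dose) or with 100 μM etoposide (the high dose). Etoposide is a topoisomerase inhibitor that leaves double-strand breaks in DNA. The line is a single tumour model, all cells were grown in the same serum-containing medium, and the control is named untreated in the labels and DMSO in the paper. The study compared a dose chosen for senescence with a dose chosen for apoptosis, and here that question was asked of the GADD45 genes. There was 1 array per condition, so no difference below has a replicate check and no test was possible.

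GADD45A, GADD45B and GADD45G encode small, acidic, closely related proteins of the nucleus and cytoplasm that are made in response to genotoxic and other stress. They have no known enzyme activity and act by binding partners, among them PCNA, the p21 protein, the CDK1 and cyclin B1 complex and the kinase MAP3K4, and they are linked to repair, to the G2/M checkpoint, to stress kinase signalling and to active DNA demethylation. GADD45A is a classical p53 target gene, GADD45B is known for its response to NF-κB and TGF-β, and GADD45G for its response to cytokines. GADD45GIP1, also called CRIF1, is not a relative of the other three by sequence, and it is a component of the large subunit of the mitochondrial ribosome that has also been described in the nucleus.

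The probe sequences show which stretch of each transcript the values below refer to. All probes lay in exons of the named RefSeq transcripts, and the positions in the files are on hg18. The GADD45A probe (transcript NM_001924, from base 706 of the transcript) lay at chr1:67925959-67926018 on the plus strand, the GADD45B probe (NM_015675, from base 1283) at chr19:2429178-2429237 on the plus strand, and the GADD45GIP1 probe (NM_052850, from base 391) at chr19:12926264-12926323 on the minus strand. For GADD45G (NM_006705, plus strand), probe 1 started at base 484 of the transcript and lay at chr9:91410709-91410768, and probe 2 started at base 995 and lay at chr9:91411220-91411279. The 3 probes that lie in protein-coding sequence are printed here 5′ to 3′, since they carry the measurements of GADD45A and GADD45GIP1 and the only measured signal of GADD45G.
GADD45A: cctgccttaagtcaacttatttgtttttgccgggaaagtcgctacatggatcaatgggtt
GADD45G probe 1: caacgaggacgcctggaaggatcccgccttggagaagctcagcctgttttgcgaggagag
GADD45GIP1: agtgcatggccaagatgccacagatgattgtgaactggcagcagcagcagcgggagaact
The GC content was 43.3% in the GADD45A probe, 36.7% in the GADD45B probe, 60% and 35.0% in probes 1 and 2 of GADD45G and 55.0% in the GADD45GIP1 probe. Because binding strength differs between such sequences, each probe was compared only with itself on the other arrays.

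Each array measured the same 34127 probes, of which 19836 to 20148 were well above background by the scanning software, and no spot was saturated. All 3 arrays lay on 1 slide at different positions, so the position of an array and the condition cannot be told apart. Signals were put on the log2 scale after division by the array's own 75th percentile, which stood at 514 for the control, 536 for the low-dose and 432 for the high-dose array. A difference of 1 on this scale is 2-fold. The error given with a log2 difference is the spread (SD) between repeated spots of probes of similar signal, which covers spot noise on an array and not differences between cultures. The scanning software's own error of a signal is wider and is named where it is used. In RNA from whole cultures, fewer cells that express a gene and less of its RNA per cell cannot be told apart. All 8 hepatocyte markers examined were well above background on every array, with a median log2 difference from control of -0.01 (low dose) and 0.49 (high dose) over the list. Of 8 markers of other cells, COL1A1, COL3A1 and DCN were not well above background on any array. The immune and endothelial markers PTPRC, CD3E, PECAM1 and CDH5 were well above it on all arrays, and PTPRC gave 257 on the control array, 131 on the low-dose array and 288 on the high-dose array. The part of these marker genes in the differences of the GADD45 genes was not tested.

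GADD45A had the highest measured difference of the family, and its highest signal was at the low dose. Its probe gave 1946 on the control array, 3486 on the low-dose array and 2252 on the high-dose array, with software errors of 195, 349 and 225. Relative to the 75th percentile the low dose was 1.72-fold above control (log2 difference 0.78, SD 0.07) and the high dose 1.38-fold above it (log2 difference 0.46, SD 0.07). Both differences were larger than the spot noise, and they were 3.82 and 2.26 times the SD derived from the software's error. That software SD was the same, 0.20 on the log2 scale, for every member measured on all arrays. Multiples of it therefore only restate the log2 differences on another scale. The low dose was 1.25-fold above the high dose (log2 difference 0.32, SD 0.07), which was 1.57 times the software SD. Among 15449 genes measured on both arrays, 698 (4.52%) had a greater difference of the low dose over control than GADD45A. For the high dose over control, 3341 of 15465 genes (21.6%) did.

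GADD45B was also highest at the low dose, but its high dose was close to control. The signals were 1488 (control), 2083 (low dose) and 1313 (high dose), with software errors of 149, 208 and 131. The low dose was 1.34-fold above control (log2 difference 0.42, SD 0.07), which was 2.08 times the software SD, and 1903 of 15449 genes (12.3%) had a greater difference. At the high dose the log2 difference from control was 0.07 (SD 0.07), no larger than the spot noise, and 51.4% of genes had a greater one. The sign of this small difference depended on the scaling: without scaling the high dose was 0.882 of control, and over all alternatives the ratio ran from 0.859 to 1.13. The low dose was 1.28-fold above the high dose (log2 difference 0.36, SD 0.07), 1.74 times the software SD.

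**Figure D1:**
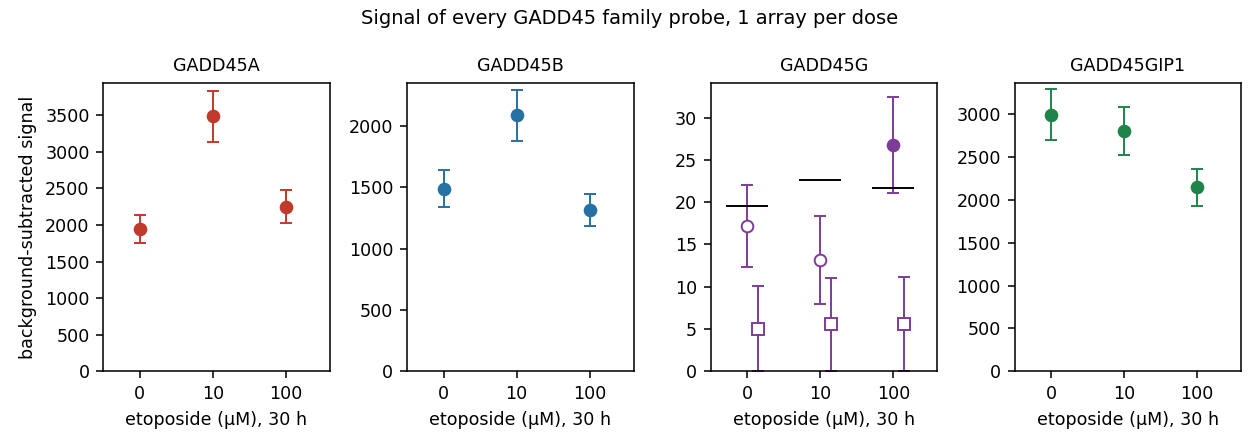
Signal of each probe in arbitrary units on linear axes from 0 for GADD45A, GADD45B, GADD45G and GADD45GIP1 at 0, 10 and 100 μM etoposide, 1 array each. Bars are the software's error, filled points are well above background and open points are not, circles and squares are probes 1 and 2, and black dashes mark the dimmest signal called well above background. GADD45A went from 1946 through 3486 to 2252, while GADD45G lay near the dashes.

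GADD45G was at the edge of detection. Probe 1 read 17.2 (control), 13.2 (low dose) and 26.8 (high dose), with software errors of 4.84, 5.23 and 5.67. It was well above background at the high dose alone, so the other 2 values are upper bounds. Raised to the dimmest signal that the software still called well above background on that array (19.5 for control and 22.7 for the low dose), they gave a high dose at least 1.63-fold above control (log2 difference 0.71, SD 0.51) and at least 1.47-fold above the low dose (log2 difference of the low over the high dose -0.55, SD 0.47). Both bounds were within 1.5 times the spot noise, which is wide at such low signals. Probe 2, further along the transcript, had signals of 5.06, 5.55 and 5.57, each about as large as its software error, and was not well above background on any array. The higher value of probe 1 at the high dose therefore had no counterpart in the second probe of the gene.

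GADD45GIP1 was the one gene of the 4 with its highest signal in control cells. The probe gave 2996 on the control array, 2806 with the low dose and 2148 with the high dose, with software errors of 300, 281 and 215. After scaling it was 1.11-fold lower than control at the low dose (log2 difference -0.16, SD 0.06) and 1.17-fold lower at the high dose (log2 difference -0.23, SD 0.07). These differences were -2.45 and -3.35 times the spot SD but -0.76 and -1.13 times the software SD. They were also common ones, since 34.0% of genes with the low and 25.3% with the high dose were lower still. The low and high dose differed by 0.07 (SD 0.07) on the log2 scale.

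No gene of the family was called past 2-fold. At the low dose over control, 0 of the 3 members that could be compared passed 2-fold, against 4.95% of 16713 genes in either direction. At the high dose over control it was 0 of 4 against 10.4% of 16974 genes, and for the low over the high dose 0 of 4 against 7.58% of 16789 genes. At 1.5-fold, GADD45A passed upward at the low dose (9.05% of all genes did), the bound of GADD45G passed upward at the high dose (18.4%), and none passed between the doses in either direction (21.7%). The counts at 1.5-fold depended on the scaling. The bound of GADD45G at the high dose was under 1.5-fold with no (1.37), median (1.34), quantile (1.20) and spike-in (1.45) scaling and with another background correction (1.41), and GADD45A and GADD45B passed upward between the doses with no scaling (1.55-fold and 1.59-fold) and median scaling (1.501-fold and 1.54-fold). The bound of GADD45G, low over high dose, passed downward with the percentile taken over all spots (0.647), without detrending (0.614) and with no filter on dim probes (0.397), and GADD45A passed at the high dose without detrending (1.52-fold). With so few members, these counts do not set the family apart from other genes. The median log2 difference over the 3 members compared at the low dose was 0.42, beside -0.04 over all genes. At the high dose it was 0.26 over 4 members, beside 0.10 over all genes. The high-dose median includes the bound of GADD45G, and the middle of the 3 measured members there was GADD45B at 0.07.

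**Figure D2:**
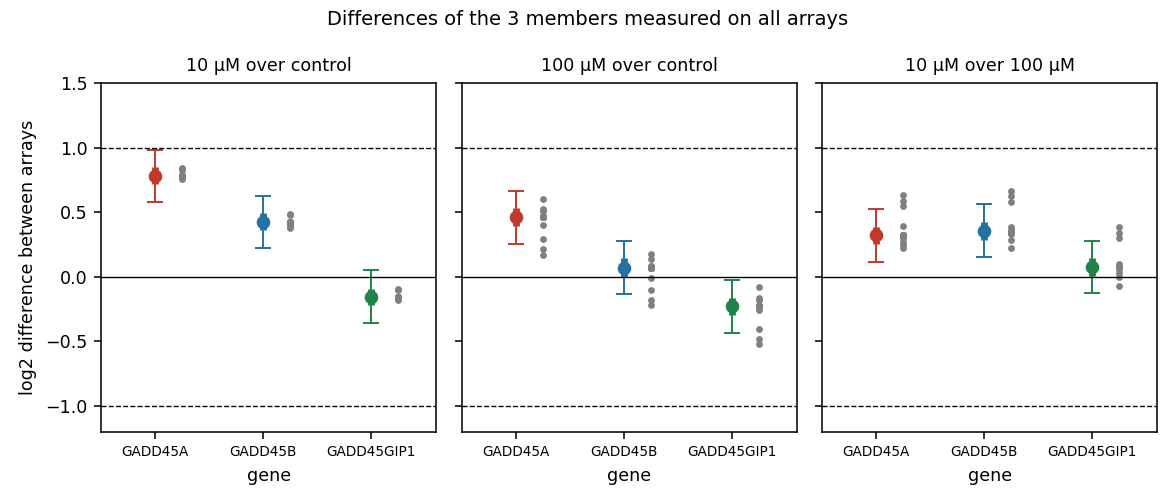
Log2 difference in scaled signal between conditions for the 3 members measured on all arrays, in each comparison. Coloured points are the values given in the text, with a thick bar for the spot SD and a thin bar for the SD from the software's error; grey dots are the same difference under other processing choices, and dashed lines mark 2-fold. GADD45A at the low dose lay at 0.78 with alternatives close to it, though those on several probes or dim probes could not move it. GADD45B at the high dose had alternatives on both sides of 0.

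The members were also set against each other within each array, where the scaling between arrays cancels. From control to the low dose, GADD45A stood 0.36 (SD 0.09) higher on the log2 scale relative to GADD45B, and from control to the high dose 0.39 (SD 0.10). The low and high dose differed in this offset by -0.04 (SD 0.10), which is within the spot noise. Relative to GADD45GIP1, GADD45A was 0.94 (SD 0.09) higher at the low dose and 0.69 (SD 0.10) at the high dose, and GADD45B was 0.58 (SD 0.09) and 0.30 (SD 0.10) higher. Both differences from GADD45GIP1 were greater at the low dose, by 0.24 (SD 0.09) for GADD45A and 0.28 (SD 0.10) for GADD45B. All these SDs cover spot noise alone. The software SD was 0.20 for the difference of each single gene, and an offset combines 2 such differences, so its software error is wider than that.

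Comparisons that involve the high dose depended most on how the arrays were scaled. The median log2 difference of all genes, high dose over control, was 0.10 in the scaling used here, -0.15 without scaling, -0.19 with median scaling and -0.07 with scaling to 7 spike-in controls. The calls past 2-fold at the high dose moved with it, from 64.9% in the upward direction in the scaling used here to 37.2% without scaling. Set relative to the median of all measured genes, GADD45A stood at 0.81 for the low and 0.38 for the high dose over control, GADD45B at 0.46 and -0.02, and GADD45GIP1 at -0.12 and -0.32. Across 15 alternatives, GADD45A ran from 1.69-fold to 1.79-fold at the low dose and from 1.13-fold to 1.52-fold at the high dose. GADD45B ran from 1.30-fold to 1.40-fold at the low dose. GADD45GIP1 at the high dose ran from 0.697 to 0.945 of control, and the difference between doses ran from 0.949 to 1.31 for this gene, with the sign turned where the signal before detrending was used.

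Genes with the same pair of differences from control as a member were named by Euclidean distance, among 12045 genes that carry a RefSeq mRNA accession and were measured on the 3 arrays. Nearest to GADD45A (0.78 at the low and 0.46 at the high dose on the log2 scale) were GTF3C5, a subunit of a general factor of RNA polymerase III (0.78 and 0.48), CYB5R2 (0.79 and 0.44) and PLEKHF2 (0.81 and 0.46), and 28 genes lay within 0.0966 of it, the combined spot SD of its differences. Nearest to GADD45B (0.42 and 0.07) were DZIP1 (0.41 and 0.07), ESYT1 (0.42 and 0.06) and ZC3H12C (0.40 and 0.09), with 66 genes within 0.0996. Nearest to GADD45GIP1 (-0.16 and -0.23) were PLOD2, a collagen lysyl hydroxylase, PRKCI, an atypical protein kinase C, and RSBN1L (all -0.15 to -0.16 and -0.23), with 456 genes within 0.0938. Fewer genes thus lay near GADD45A than near GADD45GIP1, whose differences were closer to the median of all genes. The count gives no result apart from the size of the differences.

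**Figure D3:**
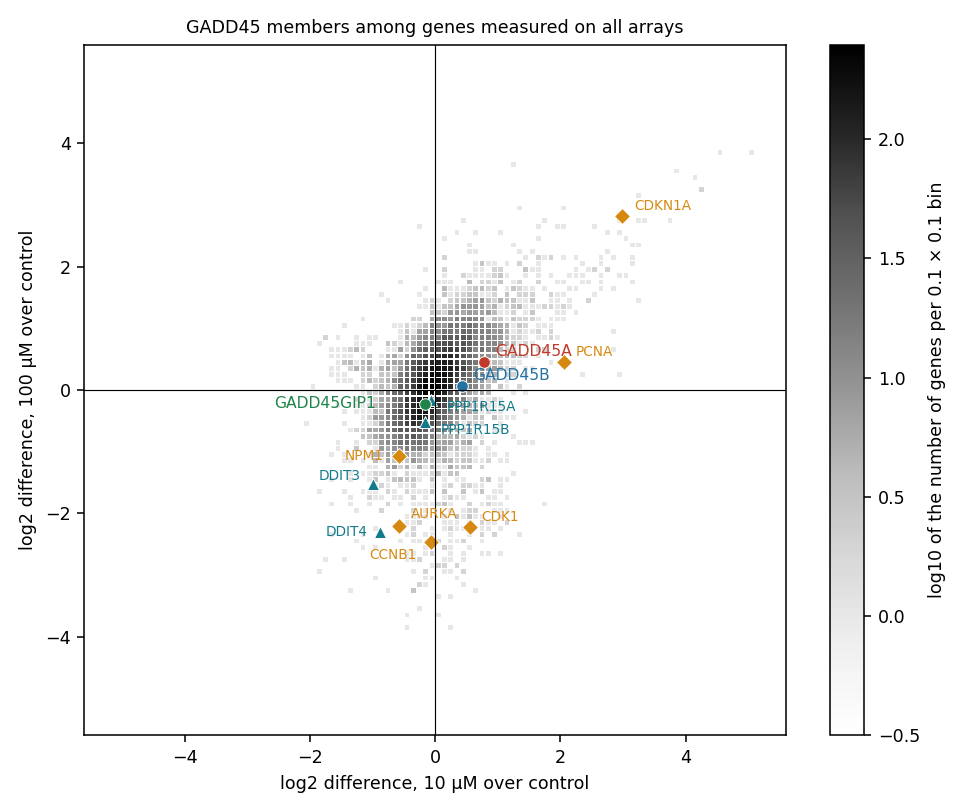
Log2 difference from control at the low dose (horizontal) against that at the high dose (vertical). Grey squares are bins of 0.1 shaded by the log10 of the number of genes, over genes measured on all 3 arrays, circles are the members, orange diamonds cell cycle and repair partners, and teal triangles other growth arrest and DNA damage inducible genes. GADD45A lay at 0.78 and 0.46 and GADD45B at 0.42 and 0.07, while CDKN1A lay at 2.99 and 2.82 and DDIT4 at -0.88 and -2.30; both axes share the control array.

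The upstream sequences of GADD45B, GADD45G and GADD45GIP1 are shown as background, and their part in the values above was not tested. RefSeq upstream sequence (GRCh38.p14) was matched for 3 of the 4 members, and that of GADD45A was not used here. The 250 bases before the start of each gene are printed 5′ to 3′ on the strand of the gene, with capitals for matches to the motifs searched. These were the TATA box as TATAAA, the CCAAT box by its letters, the octamer as ATTTGCAT, the cyclic AMP response element as TGACGTCA, the CEBP-ATF motif as TGATGNAA, the AP-1 motif as TGANTCA, the E-box as CACGTG, the κB consensus and the p53 response element half-site, on both strands. The GADD45B sequence lies at chr19:2475877-2476126 (plus strand), that of GADD45G at chr9:89604762-89605011 (plus) and that of GADD45GIP1 at chr19:12957224-12957473 (minus).
GADD45B: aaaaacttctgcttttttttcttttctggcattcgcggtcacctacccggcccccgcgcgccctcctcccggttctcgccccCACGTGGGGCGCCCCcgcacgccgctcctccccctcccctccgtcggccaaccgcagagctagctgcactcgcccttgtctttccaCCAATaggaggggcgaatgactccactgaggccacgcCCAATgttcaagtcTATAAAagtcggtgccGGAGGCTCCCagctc
GADD45G: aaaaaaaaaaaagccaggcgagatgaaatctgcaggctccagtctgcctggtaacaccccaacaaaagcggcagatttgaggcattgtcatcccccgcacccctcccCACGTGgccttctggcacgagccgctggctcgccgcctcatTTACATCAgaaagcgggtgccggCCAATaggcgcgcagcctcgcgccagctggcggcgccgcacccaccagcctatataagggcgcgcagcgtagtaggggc
GADD45GIP1: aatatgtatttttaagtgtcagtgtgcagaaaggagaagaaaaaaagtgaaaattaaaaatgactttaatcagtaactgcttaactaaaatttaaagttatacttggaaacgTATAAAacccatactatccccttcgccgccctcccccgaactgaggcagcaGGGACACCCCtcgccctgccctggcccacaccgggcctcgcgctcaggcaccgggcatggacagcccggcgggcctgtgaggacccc
In GADD45B, TATAAA began 31 bases upstream of the start, CCAAT 82 and 45 bases upstream, and CACGTG 168 bases upstream, overlapping a κB match at 163, with another κB match at 15. In GADD45G, CACGTG began 143 bases upstream, TGATGNAA 102 bases upstream on the minus strand and CCAAT 79 bases upstream. The TATA box was searched by the letters TATAAA alone, so the related tatataa in the printed GADD45G sequence was not counted. In GADD45GIP1, TATAAA began 138 and a κB match 87 bases upstream. GADD45B and GADD45G thus shared CCAAT and CACGTG, which GADD45GIP1 lacked in this window. Of 35116 promoters, 32% held CCAAT, 11% TATAAA, 9.96% a κB match, 6.57% TGANTCA, 6.34% CACGTG, 5.57% a p53 half-site, 3.14% TGATGNAA, 1.65% TGACGTCA and 1.63% ATTTGCAT, and no p53 half-site, AP-1 motif, cyclic AMP response element or octamer was matched in the 3 windows printed.

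Genes of the partners that GADD45 proteins bind in the cell cycle and in repair passed 2-fold in part at the low dose and in most cases at the high dose. Of 6 such genes, 2 passed 2-fold upward at the low dose and 0 downward (3.37% and 1.57% of all genes), and 1 passed upward and 4 downward at the high dose (6.75% and 3.64%). CDKN1A, which encodes p21, gave 170, 1407 and 1010 on the control, low-dose and high-dose arrays and was 7.94-fold and 7.07-fold above control. PCNA, the sliding clamp of DNA synthesis, was 4.17-fold above control with the low and 1.37-fold with the high dose. CDK1 (listed under its older name CDC2) and CCNB1, the kinase and cyclin that drive entry into mitosis, were 1.47 and 0.956 of control at the low dose and 0.215 and 0.182 at the high dose. AURKA, a mitotic kinase, was 0.674 and then 0.217 of control, and NPM1, a nucleolar chaperone, was 0.672 and 0.475. The median log2 difference of the 6 was 0.25 for the low and -1.64 for the high dose. GADD45A was above control at both doses, as were CDKN1A and PCNA of this list.

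In the stress MAP kinase pathway, to which GADD45 proteins connect through MAP3K4, 15 of 17 listed genes could be compared. Among them 1 passed 2-fold upward and 1 downward at the low dose (3.37% and 1.57% of all genes did), and 2 upward and 1 downward at the high dose (6.75% and 3.64%), with medians of -0.05 and -0.03. Such small counts do not set the list apart from all genes. MAP3K4 itself was 0.807 of control with the low and 0.661 with the high dose. MAPK11, a kinase of the p38 group, was 2.77-fold and 3.54-fold above control by its brighter probe, but 1.20-fold and 1.77-fold by its other probe. MAPK13 of the same group was 1.84-fold and 2.04-fold above control by its brighter probe and 1.71-fold and 1.98-fold by the other. MAP2K6, which activates that group, was 0.479 and 0.395 of control.

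Among 10 of 12 DNA demethylation partners that could be compared, 0 passed 2-fold in either direction, and the medians were -0.03 and 0.05. Over all genes, 4.95% passed either way at the low and 10.4% at the high dose, so this count does not set the list apart. The partners compared split evenly, with 5 above and 5 below control at each dose. TDG, the glycosylase that removes oxidised methylcytosine, was among those above, at 1.27-fold and 1.36-fold. All 19 listed transcription factors of GADD45 genes could be compared, with 1 past 2-fold upward and 1 downward at the low dose (3.37% and 1.57% of all genes) and 0 upward and 4 downward at the high dose (6.75% and 3.64%). E2F1, a factor of S phase entry, was 1.85-fold above control at the low dose and 0.229 of it at the high dose, and BRCA1, a repair protein, was 2.09-fold above and 0.271 of control. MYC, known as a repressor of GADD45A, was 0.470 and 0.289 of control, and ATF4, a factor of the integrated stress response, was 0.604 and 0.498, the latter on the threshold. The other growth arrest and DNA damage inducible genes were led by genes opposite in direction to GADD45A. DDIT3, a transcription factor of the stress response, was 0.505 and 0.349 of control, DDIT4, an inhibitor of mTORC1, was 0.543 and 0.203. None of the 4 compared passed 2-fold at the low dose (4.95% of all genes did either way). At the high dose 2 passed downward (3.64% of all genes), and the medians were -0.52 and -1.02.

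GADD45GIP1 was compared with the other proteins of the mitochondrial large ribosomal subunit, of which it is a part. Of 49 such genes, 32 were below control with the low and 40 with the high dose, with medians of -0.13 and -0.24 beside its own -0.16 and -0.23 and beside -0.04 and 0.10 over all genes. By these medians, most of all genes were also below control at the low dose, and most were above it at the high dose. Signs at the high dose move with the scaling, since the median of all genes there was -0.19 with median scaling. MRPL49 was the 1 gene of 49 past 2-fold upward at the low dose (3.37% of all genes were). Its signals were 2000, 4738 and 2501 and its folds 2.27 and 1.49. At the high dose 0 passed upward (6.75% of all genes), and 0 passed downward at the low (1.57%) or high dose (3.64%). The lowest at the high dose was MRPL11 at 0.522 of control. GADD45GIP1 thus lay near the middle of this group at both doses. Of the 4 other partners of GADD45GIP1 that could be compared, STAT3 was 1.72-fold (low dose) and 2.001-fold (high dose) above control. Its value at the high dose, the only one past 2-fold, lay on the threshold (6.75% of all genes passed upward at that dose).

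**Figure D4:**
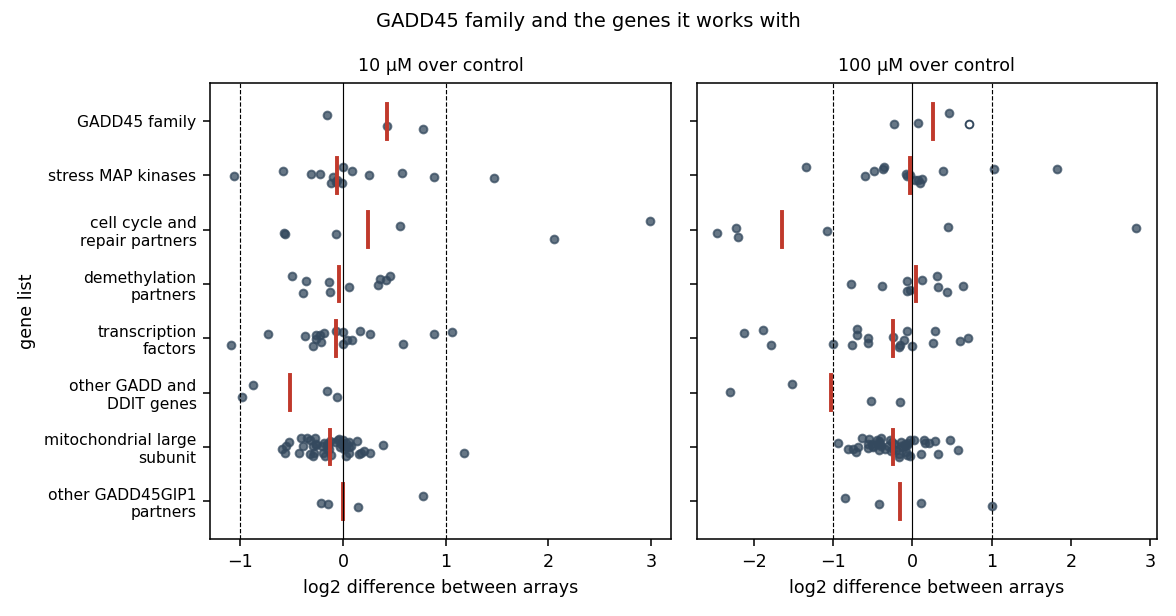
Log2 difference from control, in a panel for each dose, for the members and the 7 lists of genes around them. Each point is a gene, open points are bounds, red bars are medians and dashed lines mark 2-fold; the cell cycle and repair partners had medians of 0.25 and -1.64, and the mitochondrial large subunit genes -0.13 and -0.24.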

How the data were processed

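RNA from HepG2 cells was labelled with a single dye and hybridized to Agilent arrays, 1 per condition. The authors deposited the intensity of each spot from Agilent Feature Extraction 10.7.3.1 (per the submitters' processing notes), background-subtracted and detrended within each array on hg18 probe positions and not scaled between arrays. The deposited table of the series held the same intensities for 100% of spots (relative tolerance 1e-05).

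From these, log2 values were averaged over the spots of a probe (without outlier spots) and expressed against each array's 75th percentile over probes. A gene was represented by its brightest probe, and a difference was formed only where the brighter condition was well above background, and the dimmer was raised to the lowest such signal, giving a bound. The spot SD came from the 50 repeated probes of 10 spots nearest in signal, of 999 such probes. Groups were taken from the labels, which call the control untreated while the paper names it DMSO. No test was run. The steps were tested on simulated data. Members and lists were chosen with earlier results of these data known. Lists were the stress MAP kinase arm, cell cycle and repair partners, DNA demethylation partners, transcription factors of GADD45 genes, other growth arrest and DNA damage inducible genes, the mitochondrial large ribosomal subunit, other GADD45GIP1 partners and markers of hepatocytes and other cells. Named genes were all members, all genes of the pathway lists (all but the marker lists) past 2-fold over control and the 3 genes nearest in pattern to each member; the other list genes named (MAP3K4, TDG, MRPL11 and the marker genes with values) were chosen after their values were seen. Some listed genes are not reported here. Alternatives were no, median, quantile, spike-in and other percentile scaling, normexp correction (offset 50), the signal before detrending, other treatment of outlier spots, several probes and dim probes, thresholds of 1.5-fold and 3-fold, and the table of the series. Python 3.11.15, pandas 2.3.3, numpy 2.4.6, R 4.3.3 and limma 3.58.1 were used.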

Additional observations from a re-analysis of the deposited data

How the results depend on the processing

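With 1 array per condition no difference has a replicate check, and the number of arrays limits the precision. No paired analysis was possible because a condition is represented by a single array. No member passed 2-fold under any scaling. At a 1.5-fold threshold 1 member passed at each dose, and with no filter on dim probes 1 member (GADD45G, low over high dose) passed. The sign of GADD45B at the high dose turned without scaling (log2 -0.18), with median scaling (-0.22), with spike-in scaling (-0.10) and with normexp (-0.01). For GADD45A at the high dose, the log2 difference was 0.21 without scaling, 0.17 with median scaling, 0.29 with spike-in scaling and 0.60 without detrending, and the cause was not tested.

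The counts of list genes past the threshold moved as follows. In the stress MAP kinase arm, upward at the low dose (1), the count was 0 by the mean of probes, the dimmest probe or 3-fold and 2 at 1.5-fold; downward (1), it was 0 by normexp or 3-fold. At the high dose, upward (2), it was 1 with no, median or spike-in scaling, normexp or 3-fold, 0 by the dimmest probe and 3 with no filter; downward (1), it was 0 by normexp or 3-fold and 2 at 1.5-fold. For demethylation partners (0), 1 was lower at the low dose with no filter; at the high dose 1 was higher with no filter or at 1.5-fold and 1 lower with no or median scaling or at 1.5-fold. For transcription factors at the low dose, 1 higher became 0 by normexp or 3-fold and 2 at 1.5-fold, and 1 lower became 0 at 3-fold and 2 at 1.5-fold; at the high dose, at 1.5-fold, 2 were higher and 7 lower, and the 4 lower at 2-fold became 5 with no or median scaling and 3 with quantile or either other percentile scaling, without detrending or at 3-fold. For cell cycle and repair partners at the high dose, 4 lower became 3 without detrending or at 3-fold. Of the other growth arrest genes, at the low dose 1 was lower with median scaling and 2 at 1.5-fold, and at the high dose 1 at 3-fold. In the mitochondrial subunit at the low dose, 1 was lower at 1.5-fold and 0 higher at 3-fold; at the high dose, 2, 3, 1 and 6 were lower with no, median and spike-in scaling and at 1.5-fold. Of the other GADD45GIP1 partners, 1 was higher at the low dose with no filter or at 1.5-fold. At the high dose 0 were higher with no, median, quantile or spike-in scaling, normexp, the median of spots or 3-fold, and 1 was lower with no, median or spike-in scaling or at 1.5-fold.

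Of all genes past 2-fold at the high dose, the number higher was 1145 in the scaling used here and 634 without scaling, and the number lower was 618 and 1072. At the low dose they were 564 and 649 higher and 263 and 231 lower.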
